A study of Homo sapiens with 16 samples.

Results

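The protocadherins are the largest family of cadherin-like adhesion receptors, and their genes were taken as all protein-coding symbols that start with PCDH in the count table. Of 69222 gene rows, 66 were protocadherins. They comprised 15 genes of the alpha cluster, 16 of the beta cluster, 22 of the gamma cluster and 13 genes that lie outside the clusters. Another 13 symbols with the same start, which name pseudogenes, antisense transcripts and divergent transcripts, were left out. Enough counts for a test were present for 44 of the 66, namely 8 alpha, 15 beta, 13 gamma and 8 non-clustered genes.

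RNA was measured by polyA-selected sequencing in SH-SY5Y, a single human neuroblastoma line whose cells take on neuronal features under retinoic acid and BDNF. There were 8 groups of 2 libraries, 16 in all. One group stayed untreated, on plates. All others were differentiated: serum went down to 5%, 2.5% and 1% (days 2, 3 and 5), with 10 µM retinoic acid between days 3 and 6 and then 50 ng/mL BDNF during 4 days. One of them stood on plates, and the other 6 stood on conductive films of PEDOT:PSS, a blend of conducting polymers, of ITO (indium tin oxide) or of P(rGO), which joins a polymer with reduced graphene oxide. Each film was used without and with electrical stimulation (ES), a square wave from 0 to 0.1 V at 1 Hz for 8 h a day in the last 4 days. The films carried poly-L-lysine and laminin, and no coat is named for the plates, so film and coat cannot be told apart against plates. Whether the replicates came from separate cultures is not stated, so p-values refer to the spread between libraries, part of which may be technical.

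Libraries held 15600410 to 20851000 reads assigned to genes, of which 6987 to 18001 belonged to protocadherins. All 9 adrenergic neuroblastoma markers that were checked, among them HAND2 and DBH, were present in every group. The first differentiated plate library had 8.58% mitochondrially encoded counts and 0.0639% protocadherin counts, and the second had 5.42% and 0.0870%. In all 8 groups the second library had the higher protocadherin share, 0.0420% to 0.0878% against 0.0386% to 0.0821% in the first.

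Clustered protocadherins carry extracellular cadherin repeats that bind the same isoform on another cell, and a neuron's mix of isoforms serves as a surface label by which its branches recognise each other. Each alpha and gamma gene has its own promoter and its own large variable exon, which is spliced to constant exons shared by the whole cluster, whereas beta genes are single exons. Which promoters are active depends on CTCF and cohesin, DNA methylation and a distant enhancer, and the C-type genes at the end of the alpha and gamma clusters are regulated apart from the rest. The non-clustered genes, mostly of the delta families, act in adhesion and in steering the actin cytoskeleton.

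In GENCODE 29 (GRCh38) the clusters lie on the plus strand of chromosome 5, the alpha cluster from 140786136 to 141012347, the beta genes from 141051135 to 141249365 and the gamma cluster from 141330571 to 141512981. The constant exons bear on what a count means here. Between 21.3% and 63.1% of the exon bases of an alpha gene, and between 27.6% and 64.4% of those of a gamma gene, were shared with other genes. Overlap was counted on either strand here and below, and for some genes it includes genes that are not protocadherins. A read that lies wholly in a constant exon can be given to no single gene. The alpha and gamma values below therefore come mainly from the variable exons and understate the clusters. Beta genes share no exon with another protocadherin, but they resemble each other. Of the 50-base words of PCDHB8 45.1%, and of those of PCDHB10 33.5%, also occurred in transcripts of other genes, protocadherins or not. Among the alpha genes the share was 28.1% for PCDHA8, and for the C-type genes it was 0%. Reads from such stretches could be placed at more than 1 position, so the genes with high shares are the less certain ones.

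A short conserved element in front of most variable exons is the known docking site of CTCF, and its core marks the 3 clusters in different letters. The promoters below match the letters of their cluster's core and belong to isoforms well counted in these cells. PCDHA5, an alpha isoform close to the limit of detection, is given for contrast. A match of these letters alone does not show that the whole element is present or that CTCF binds there, for PCDHGC4 as for the others, and neither was tested. Shown are 30-base stretches of RefSeq promoter windows (GRCh38.p14, plus strand of chromosome 5, 250 bases before to 50 after the start), in which capitals mark the core found in each cluster.
PCDHA4, chr5:140806981-140807010: gagccacatgATGTCGCTctttaccacaaa
PCDHA8, chr5:140841132-140841161: aagccacatgATGTCGCTgtctaccaagaa
PCDHA12, chr5:140875246-140875275: cagtcacatgATGTCGCTctacactcagaa
PCDHA5, chr5:140821544-140821573: catccacatgATGTCGCTggacaccggaag
PCDHB3, chr5:141100395-141100424: cgaacgcatgGTGGCGCTgttgactaagaa
PCDHB10, chr5:141192301-141192330: aggccacacgGTGGCGCTgcaggctaaaga
PCDHB14, chr5:141223265-141223294: gagacacatgGTGGCGCTacaggataagac
PCDHGA7, chr5:141382651-141382680: aggactcacagcGCCGCTGTtcaccaacca
PCDHGC3, chr5:141475882-141475911: gggactctgtgtGCCGCTGTcggccaatga
PCDHGC4, chr5:141484954-141484983: ctgagcccgggaGCCGCTGTctgccaatcg

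The 3 cores were picked from letters that these promoters have in common, so their counts in the clusters are a description. Promoter windows were at hand for 58 of the 66 genes, and motifs were searched on both strands. ATGTCGCT was present in 9 of 13 alpha windows, in no beta or gamma window and in 0.282% of the 27305 windows of all genes. PCDHAC1 and PCDHAC2, the C-type genes, were among the 4 alpha genes without it, although PCDHAC2 had the most counts of the cluster. GTGGCGCT was present in 13 of 14 beta windows, in no alpha or gamma window and in 1.38% of all windows. GCCGCTGT was present in 11 of 20 gamma windows, in no alpha or beta window and in 1.98% of all windows. PCDHGB7, with the second most counts of the gamma cluster, was among those without it. All 3 contain CGCT, which occurred in 71.9% of all windows. PCDHA5 carries the same alpha core as PCDHA4 and PCDHA8, and its counts were between 1 and 10 per library.

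A small set of isoforms made up most of each cluster's counts, and it was the same in all 16 libraries. In the alpha cluster these were PCDHAC2 with 32.0% of the cluster's counts over all libraries, PCDHA4 with 14.9%, PCDHAC1 with 14.3%, PCDHA8 with 13.9% and PCDHA12 with 13.4%. In the beta cluster PCDHB10 (17.7%), PCDHB6 (17.1%), PCDHB3 (16.3%), PCDHB14 (14.4%) and PCDHB4 (10.3%) led in every library. In the gamma cluster PCDHGC3 (30.8%), PCDHGB7 (28.4%), PCDHGA7 (21.1%) and PCDHGC4 (13.1%) led in every library, and the fifth gene was PCDHGB2 in 11 of them. These shares pool all libraries, and the order within the set differed between groups. In untreated cells PCDHGC3 had 75.3 ± 13 CPM and PCDHGB7 34.1 ± 2.4 (SD, n = 2), and on differentiated plates 59.8 ± 6.9 and 80.4 ± 17. PCDHB6 (21.2 ± 1.3 CPM) and PCDHB3 (19.5 ± 2.8) stood above PCDHB10 (12.3 ± 3.1) in untreated cells. On differentiated plates PCDHB6, at 30.9 ± 1.5, lay within the spread of PCDHB10, at 32.5 ± 8.3.

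Per length, gamma isoforms had the highest levels within the clusters. Over the 16 libraries the mean level per kilobase of exon that no other gene shares was 24.9 CPM (counts scaled to the library total) for PCDHGB7, 23.4 for PCDHGC3 and 15.8 for PCDHGA7, with the non-clustered PCDH17 at 19.0. PCDHB3, PCDHB10 and PCDHB6 stood next to each other at 9.17, 9.16 and 9.02, and PCDHAC2 at 6.98. The value of PCDHA4, 0.970 CPM per kilobase, is lowered by an annotated transcript that extends its unique bases to 10574. At the other end, PCDHA2, PCDHA3, PCDHA5, PCDHA6, PCDHA9, PCDHA11 and PCDHA13, PCDHB1 and 9 gamma genes (PCDHGA5, PCDHGA8 to PCDHGA12, PCDHGB3, PCDHGB5 and PCDHGB6) had too few counts to be tested, with 13 to 108 counts each over all 16 libraries.

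**Figure D1:**
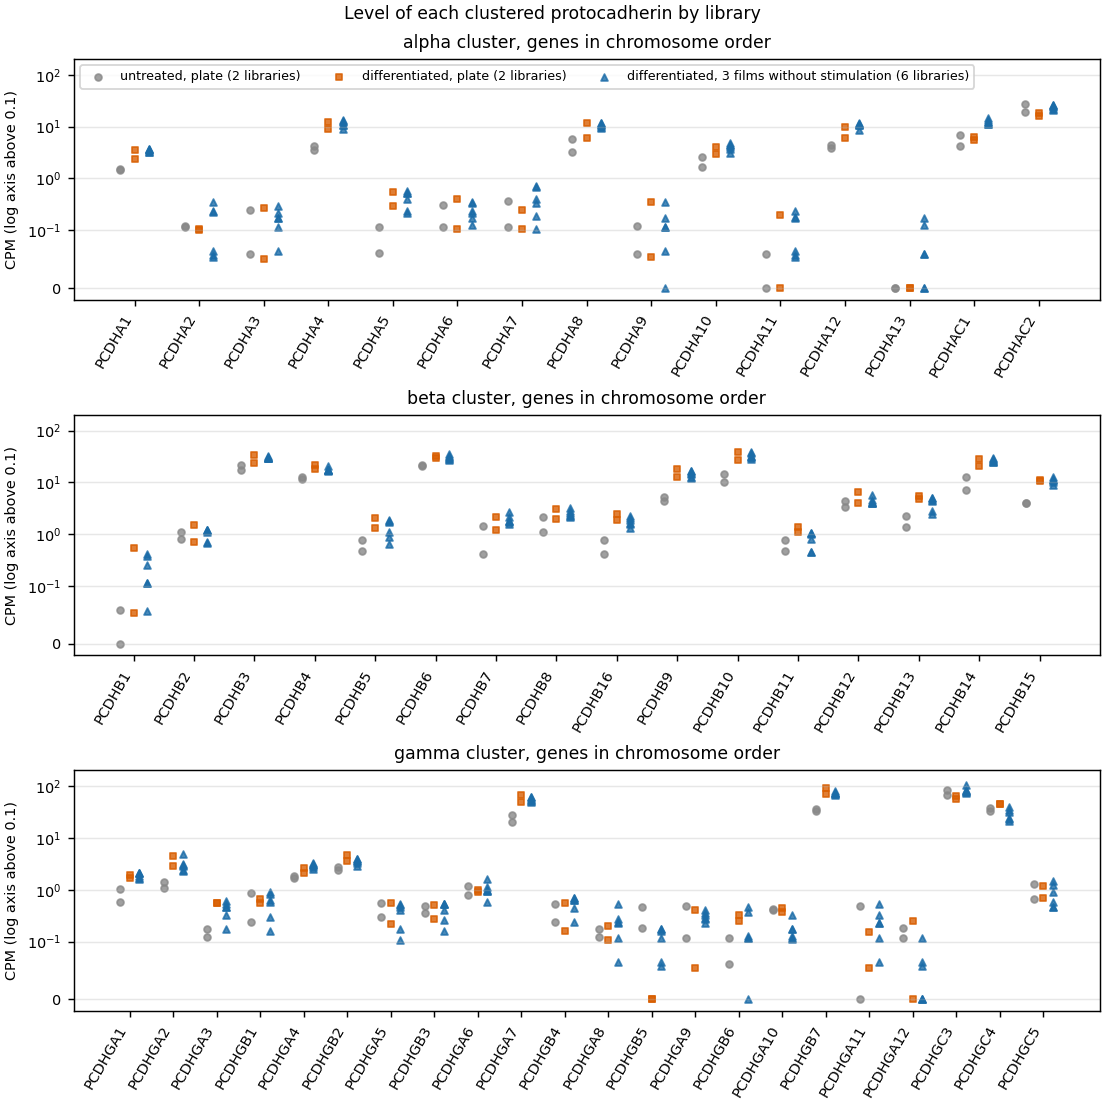
Level of each clustered protocadherin in CPM (log axis above 0.1) in the 2 untreated, 2 differentiated plate and 6 unstimulated film libraries, 1 point per library, with genes in chromosome order. In each cluster a few isoforms such as PCDHAC2, PCDHB10, PCDHGC3 and PCDHGB7 stood above 10 CPM in differentiated cells, while others stayed below 1 CPM in every group.

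The first comparison asked what differentiation on plates changed. Most of the expressed clustered isoforms outside the C-type genes lay higher in differentiated cells, and the largest rise in CPM was that of PCDH17, a non-clustered protocadherin. Of the 44 genes tested, 18 rose and 1 fell (edgeR's quasi-likelihood test, Benjamini-Hochberg adjusted p of at most 0.05). Among all 18081 genes tested 29.6% were called, 13.8% higher and 15.8% lower. The median log2 fold change was 0.81 in the alpha, 0.98 in the beta and 0.39 in the gamma cluster and 0.14 among the non-clustered genes, against -0.01 over all genes. RNA of a culture was read as a whole, so a higher level per cell and more cells that express a gene cannot be told apart.

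In the alpha cluster 3 of 8 tested genes rose. PCDHA4 had 4.14 and 3.57 CPM in the untreated libraries and 8.90 and 12.0 in the differentiated plate libraries (log2 fold change 1.44, SE 0.22, adjusted p = 0.00054). PCDHA8 had 3.20 and 5.69 CPM before and 6.13 and 11.5 after (0.99, SE 0.30, adjusted p = 0.025), and PCDHA12 had 3.91 and 4.42 CPM before and 5.92 and 9.84 after (0.92, SE 0.26, adjusted p = 0.019). The groups did not overlap for any of these 3 alternate isoforms, and the second differentiated library was the higher one each time. With 2 libraries per group and genes picked by their calls, such separation is description only, here and below. The C-type genes PCDHAC2, which is needed for the even spacing of serotonergic axons, and PCDHAC1 did not pass. PCDHAC2 had 18.7 and 27.4 CPM in untreated and 15.7 and 18.1 in differentiated cells (-0.45, SE 0.19, adjusted p = 0.089), and PCDHAC1 had a log2 fold change of 0.11 (SE 0.24, adjusted p = 0.76).

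The beta cluster had 9 of 15 tested genes higher and none lower, and all 15 log2 fold changes were above 0. PCDHB10 had 14.6 and 10.1 CPM in untreated cells and 26.7 and 38.4 in differentiated cells (1.40, SE 0.25, adjusted p = 0.0017). PCDHB14 went from 12.8 and 7.26 CPM to 20.7 and 28.3 (1.28, SE 0.23), and PCDHB9 from 5.27 and 4.48 to 12.8 and 18.2 (1.67, SE 0.26). In all 3 cases both differentiated libraries exceeded both untreated ones. PCDHB15 (1.46), PCDHB13 (1.51) and PCDHB16 (1.83) rose as well, at lower levels. Smaller rises were those of PCDHB4 (0.71, adjusted p = 0.015), PCDHB3 (0.58, adjusted p = 0.038) and PCDHB6, whose libraries went from 22.1 and 20.3 CPM to 29.8 and 31.9 (0.54, SE 0.14, adjusted p = 0.011). The sequence sharing stated above applies to these values. PCDHB10 had 33.5%, PCDHB9 24.2% and PCDHB13 24.2% of its words in common with other genes.

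In the gamma cluster 4 of 13 tested genes rose, all of them A and B subtypes. PCDHGA7 had 20.5 and 27.2 CPM in untreated cells and 49.7 and 66.2 in differentiated cells (1.28, SE 0.20, adjusted p = 0.00074). PCDHGB7 had 32.4 and 35.8 CPM before and 68.5 and 92.4 after (1.24, SE 0.16, adjusted p = 0.0002). For both genes the gap between the groups was wider than the distance between replicates. PCDHGA2, at 1.25 ± 0.23 CPM in untreated cells (SD, n = 2), rose by 1.53, and PCDHGA1, at 0.810 ± 0.31, by 1.16 (adjusted p = 0.043). The C-type genes did not pass: PCDHGC3 had 66.0 and 84.7 CPM before and 54.9 and 64.7 after (-0.33, SE 0.18, adjusted p = 0.18). PCDHGC4, an isoform required for the survival of neurons in mice, had 32.2 and 37.6 CPM before and 44.5 and 44.3 after (0.35, SE 0.24, adjusted p = 0.28).

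**Figure D2:**
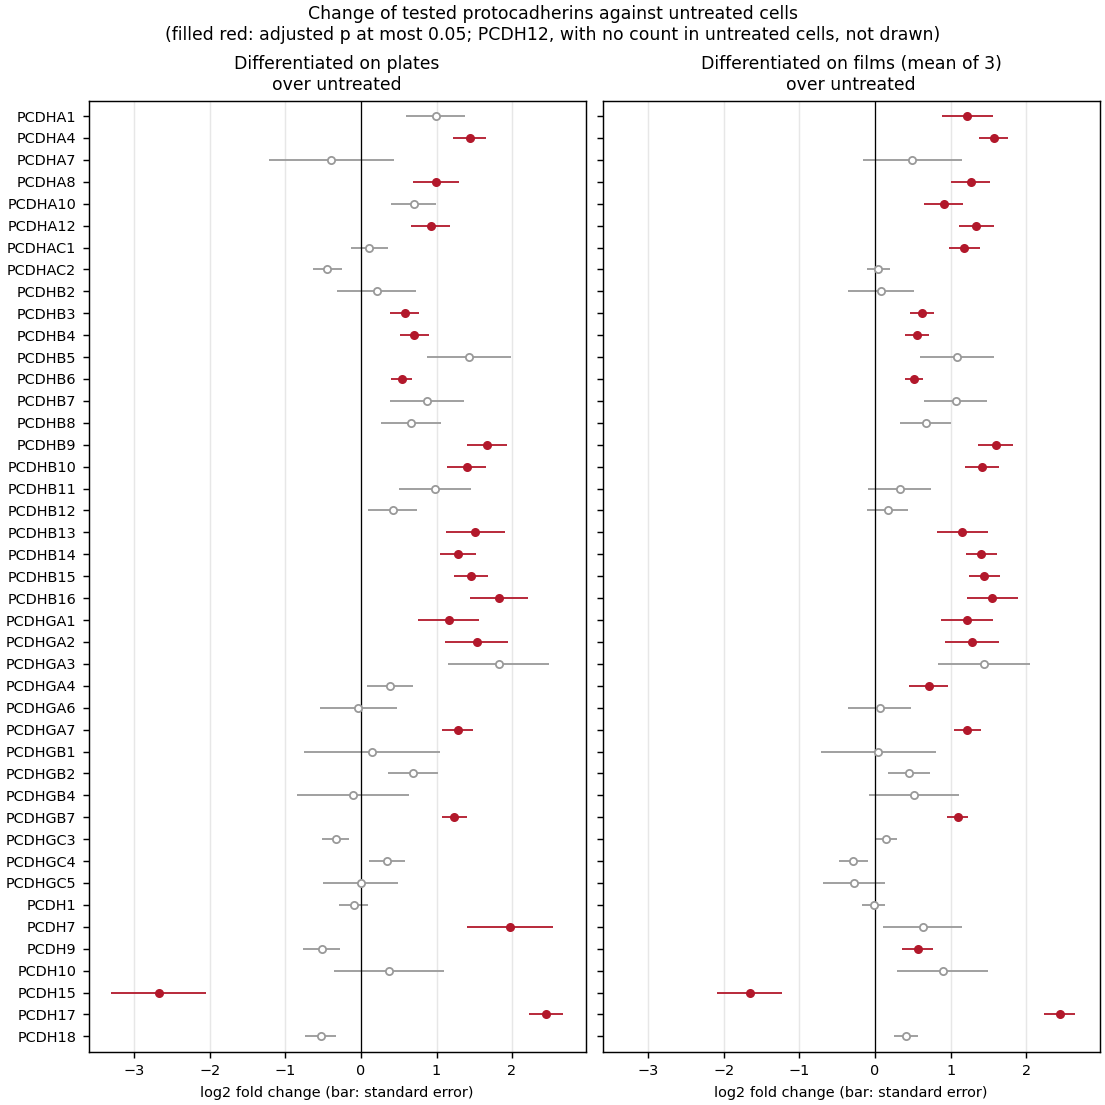
Log2 fold change over untreated cells of the tested protocadherins other than PCDH12, on plates (left) and as the mean of 3 unstimulated films (right), with standard errors as bars and genes with an adjusted p of at most 0.05 filled in red. PCDH17 lies farthest right in both panels, at 2.45 on plates and 2.44 on films, PCDH15 is the 1 gene called to the left of 0, and no C-type gene is filled in red on plates.

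Outside the clusters, PCDH17, a delta protocadherin that recruits actin regulators to axon contacts, gave the smallest p of all members. It lies on chromosome 13 from 57631810 to 57729311 on the plus strand. Its libraries had 27.9 and 34.8 CPM in untreated cells and 132 and 210 in differentiated cells (2.45, SE 0.23, adjusted p = 2.2e-05), and it was called in all 9 alternatives tried. An annotated non-coding gene overlaps 654 of its exon bases, 7.9% of them. PCDH7, a delta protocadherin also studied in tumours, rose from 0.355 and 0.424 CPM to 1.79 and 1.30 (1.97, SE 0.57, adjusted p = 0.019). PCDH15, known as a tip link protein of hair cells, fell from 0.710 and 1.03 CPM to 0.109 and 0.150 (-2.68, SE 0.62, adjusted p = 0.0066). Both of the last genes stood near or below 1 CPM, so few reads carry them.

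The other tested non-clustered genes did not pass. PCDH1, an adhesion protein of airway epithelium, had 37.5 ± 7.3 CPM in untreated and 35.1 ± 10 in differentiated cells (SD, n = 2; log2 fold change -0.10). PCDH9 had 32.3 ± 15 and 22.5 ± 2.3 CPM (-0.52, adjusted p = 0.13), and its untreated libraries, at 22.1 and 42.6, overlapped the differentiated ones, at 20.8 and 24.2. PCDH18, which binds the adaptor DAB1, had 22.2 ± 2.6 and 15.3 ± 0.75 CPM (-0.53, adjusted p = 0.057), and PCDH10 had 0.357 ± 0.25 and 0.462 ± 0.19. PCDH12, known from endothelial cells, had no count in untreated cells and 0 and 0.549 CPM in differentiated ones (adjusted p = 0.065). Of the remaining 5 genes, PCDH8 had 34 counts over the 16 libraries, PCDH19 had 38, PCDH20 had 3, and PCDH11X and its near-identical copy PCDH11Y had none, which allows up to 0.0103 CPM by counting error. Of the 50-base words of PCDH11X and of PCDH11Y, 57.2% each also occurred in other genes. Reads placed at more than 1 position may therefore be missing from that limit. Almost all exon bases of PCDH20 (95.8%) are overlapped by another annotated gene, counted on either strand. If that gene lies on the same strand, or if strand was ignored in counting, most reads of PCDH20 could be given to no single gene.

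These counts depended on single libraries, most on the second differentiated plate library. Without that one 9 protocadherins were called, all higher, and PCDHA8, PCDHA12, PCDHB3, PCDHB4, PCDHB6, PCDHB13, PCDHGA1, PCDHGA2, PCDH7 and PCDH15 lost their calls, while a fit of only these 4 libraries called 1, PCDH17. Without untreated replicate 1 PCDHA8, PCDHGA1 and PCDH7 lost theirs and 7 other protocadherins passed, among them PCDHAC2 (-0.71, adjusted p = 0.0045), PCDHGC3 (-0.51, adjusted p = 0.044), PCDH18 (-0.66, adjusted p = 0.026) and PCDH9 (-0.93, adjusted p = 0.0016), all 4 lower. Without untreated replicate 2 PCDHB3 and PCDHGA2 lost their calls, and without differentiated plate replicate 1 PCDHGA1 and PCDH7 did. Untreated cells also had higher marker levels of other cell states, whose part in these changes was not tested: the summed level of 10 mesenchymal neuroblastoma markers was 947 to 1539 CPM untreated and 258 to 284 differentiated. The 9 fibroblast markers summed to 424 to 636 and 221 to 252 CPM, and the 6 cycling markers to 1325 to 2024 and 320 to 585. PRRX1 (mesenchymal), POSTN (fibroblast) and the glial markers SOX10 and GFAP were at 0 in both groups.

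Within the alpha and gamma clusters the C-type genes took a smaller share of the counts after differentiation. In untreated cells PCDHAC1 and PCDHAC2 together made up 61.3% and 63.7% of the alpha counts, and in differentiated plate cells 36.5% and 43.7%. The summed level of the other alpha isoforms was 17.0 ± 1.4 CPM before and 35.0 ± 11 after (SD, n = 2), and that of the C-type pair was 28.6 ± 4.4 and 22.9 ± 2.3. PCDHGC3, PCDHGC4 and PCDHGC5 made up 61.0% and 62.3% of the gamma counts untreated and 38.4% and 43.0% differentiated. The other gamma isoforms summed to 69.0 ± 8.2 CPM and then 155 ± 31, and the C-type genes to 111 ± 17 and 105 ± 7.1. On the films, with or without stimulation, the mean share lay between 42.8% and 48.5% in the alpha and between 40.3% and 45.0% in the gamma cluster. Neither share in any of the 14 differentiated libraries reached the range of the untreated ones. The shares are of assigned counts, so they leave out the constant exons, and no test was made on them.

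**Figure D3:**
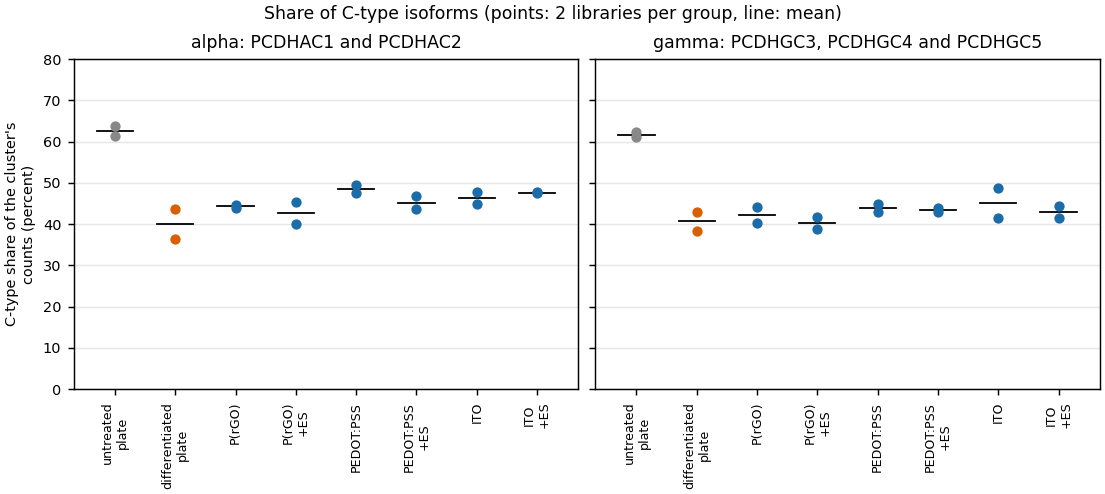
Share of the C-type genes in the counts of the alpha (left) and gamma (right) cluster in percent, 1 point per library and a line at the mean of the 2 libraries of a group. Untreated cells lie at 61.0% to 63.7% in both panels, above all differentiated libraries, which lie below 50%.

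Cells differentiated on the 3 films without stimulation were then compared with the same untreated libraries, so the values share their reference with those on plates and are given side by side. On films 23 of 44 tested genes rose and 1 fell, where 44.8% of all genes were called, 20.4% higher and 24.3% lower. The median log2 fold change was 0.80, against -0.01 over all genes. In the alpha cluster 6 of 8 rose: PCDHA4 by 1.57 (SE 0.19, adjusted p = 2.6e-05; 1.44 on plates), PCDHA12 by 1.34, PCDHA8 by 1.27, PCDHA1 by 1.22, PCDHA10 by 0.91 and PCDHAC1 by 1.18. PCDHAC1 was the 1 C-type gene called, from 6.75 and 4.30 CPM untreated to 11.1 to 14.6 in the 6 film libraries. PCDHAC2 had a log2 fold change of 0.04 (SE 0.15, adjusted p = 0.84).

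The same 9 beta genes passed as on plates, PCDHB10 by 1.42 (SE 0.22, adjusted p = 0.0002), PCDHB9 by 1.60, PCDHB16 by 1.55, PCDHB15 by 1.45, PCDHB14 by 1.40, PCDHB13 by 1.15, PCDHB3 by 0.62, PCDHB4 by 0.56 and PCDHB6 by 0.52. Of the 13 gamma genes 5 rose: PCDHGA7 by 1.22 (SE 0.18, adjusted p = 0.0001), PCDHGB7 by 1.10 (SE 0.14, adjusted p = 3.4e-05), PCDHGA2 by 1.28, PCDHGA1 by 1.21 and PCDHGA4 by 0.71. PCDHGC3 was at 0.14 (SE 0.15, adjusted p = 0.46). PCDH17 rose to 135 to 193 CPM in the 6 libraries (2.44, SE 0.21, adjusted p = 2.1e-06), close to its value on plates, and PCDH15 fell (-1.66, SE 0.43, adjusted p = 0.0066). PCDH9 was called higher (0.56, SE 0.21, adjusted p = 0.039), but the groups overlapped, with 22.1 and 42.6 CPM untreated and 35.7 to 55.9 on films. PCDH1 was at -0.02 (SE 0.16, adjusted p = 0.93).

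PCDH12 had 0 counts in both untreated libraries and was called (adjusted p = 0.0002). With the untreated group taken at its floor of 3 counts, it was at least 39.5-fold higher on P(rGO), 22.6-fold on PEDOT:PSS and 34.0-fold on ITO. It passed the filter on low counts only through the differentiated groups, so its call is not independent of that filter. The gene shares 108 exon bases with RNF14, which stood at 47.6 ± 1.3 CPM in the untreated cells where PCDH12 had no count. Summed over a class, levels on P(rGO), PEDOT:PSS and ITO were 81.7 ± 1.4, 72.4 ± 2.8 and 81.1 ± 2.9 CPM for alpha genes (untreated 45.6 ± 5.8, plates 57.9 ± 13; SD, n = 2). Beta genes had 189 ± 24, 180 ± 16 and 177 ± 3.2 (untreated 95.2 ± 14, plates 184 ± 34). Gamma genes had 249 ± 17, 255 ± 16 and 270 ± 39 (untreated 180 ± 26, plates 260 ± 38). Without untreated replicate 1 PCDHB13, PCDHGA1, PCDHGA4 and PCDH9 lost their calls, without untreated replicate 2 PCDHA10, PCDHB3, PCDHB4, PCDHGA2, PCDHGA4 and PCDH15 did, and PCDHGA4 lost its call in 10 of 13 alternatives.

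Each film was next set against differentiated cells on plates, and these 3 comparisons all used the same 2 plate libraries. The genes called were PCDHAC1 and PCDHGC4 of the clusters and the non-clustered PCDH9, PCDH12 and PCDH18. On P(rGO) 4 protocadherins rose and 1 fell of 44 (4.63% of all genes called, 2.99% higher and 1.64% lower). On PEDOT:PSS 1 rose (1.48% called, 1.02% higher and 0.454% lower), and on ITO 4 rose (4.23% called, 2.50% higher and 1.73% lower). No beta gene was called on any film, with medians of -0.06, -0.08 and -0.08 over the 15 tested.

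PCDH18 rose on each film. It had 14.8 and 15.9 CPM on plates, 35.1 and 31.7 on P(rGO) (1.12 on the log2 scale, SE 0.20, adjusted p = 0.0065), 29.7 and 30.2 on PEDOT:PSS (0.96, SE 0.20, adjusted p = 0.029) and 26.8 and 24.8 on ITO (0.75, SE 0.20, adjusted p = 0.05). All film libraries exceeded both plate libraries, and untreated cells, at 20.4 and 24.1, lay between. PCDH9 had 20.8 and 24.2 CPM on plates and rose to 43.7 and 55.9 on P(rGO) (1.15, SE 0.25, adjusted p = 0.019) and to 53.9 and 53.9 on ITO (1.26, SE 0.25, adjusted p = 0.011). On PEDOT:PSS it had 35.7 and 45.4 CPM (0.85, SE 0.25, adjusted p = 0.12), above both plate libraries but not past the test.

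PCDH12 was at 0 and 0.549 CPM on plates. It rose to 2.46 and 4.63 CPM on P(rGO) (3.62, SE 0.73, adjusted p = 0.015) and to 2.90 and 3.20 on ITO (3.40, SE 0.73, adjusted p = 0.021), and had 1.72 and 2.33 on PEDOT:PSS (2.81, SE 0.75, adjusted p = 0.087). These folds rest on 11 counts on plates against 123, 104 and 70 on the films. PCDH12 passed the filter on low counts only through the film groups. Its calls on P(rGO) and ITO, which are among those counted above, are therefore not independent of that filter. RNF14, which overlaps it, had 56.6 ± 9.3 CPM on plates and 79.8 ± 0.57, 86.5 ± 7.1 and 79.6 ± 2.8 on the same films, and its part in the PCDH12 counts was not tested.

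PCDHAC1, the first C-type gene of the alpha cluster, had 5.54 and 6.39 CPM on plates. It rose to 11.4 and 14.6 on P(rGO) (1.12, SE 0.24, adjusted p = 0.016) and 12.3 and 13.5 on ITO (1.11, SE 0.24, adjusted p = 0.017), and had 12.3 and 11.1 on PEDOT:PSS (0.97, SE 0.24, adjusted p = 0.059). Plates and films did not overlap on any film, and plates lay within the range of the untreated libraries. PCDHGC4 had 44.5 and 44.3 CPM on plates and fell to 23.9 and 21.0 on P(rGO) (-0.98, SE 0.24, adjusted p = 0.034), with 34.4 and 31.7 on PEDOT:PSS (-0.43, adjusted p = 0.46) and 23.4 and 39.1 on ITO (-0.50, adjusted p = 0.30). The 2 ITO libraries lay farther apart than those of either other film.

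**Figure D4:**
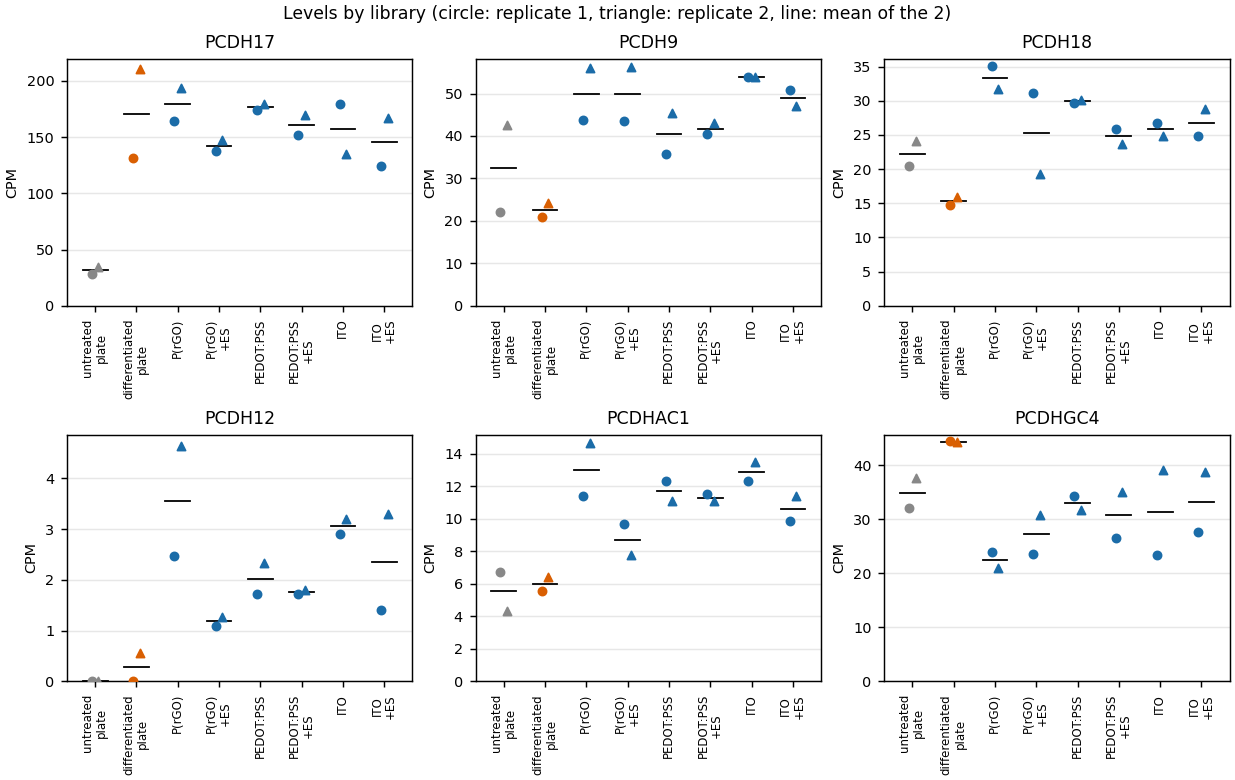
CPM in each of the 16 libraries (circles replicate 1, triangles replicate 2, line at their mean) for the non-clustered genes PCDH17, PCDH9, PCDH18 and PCDH12 and the C-type genes PCDHAC1 and PCDHGC4. PCDH17 is low in untreated cells only, while PCDH9, PCDH18, PCDH12 and PCDHAC1 are lower on differentiated plates than on every unstimulated film library.

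Of the 3 most abundant genes of each class, PCDHAC1 and PCDH9 are given above, and the others did not pass on any film. PCDHAC2 had log2 fold changes of 0.45, 0.47 and 0.55 on P(rGO), PEDOT:PSS and ITO (adjusted p of 0.14 to 0.27) and PCDHA4 of 0.30, -0.07 and 0.16. Those of PCDHB10 were 0.09, 0.02 and -0.05, those of PCDHB6 were 0.12, -0.10 and -0.08, and those of PCDHB3 were 0.09, 0.01 and 0.03. PCDHGC3 had 0.45, 0.38 and 0.60 (adjusted p of 0.087 to 0.38), PCDHGB7 had -0.11, -0.17 and -0.14, and PCDHGA7 had -0.11, -0.05 and -0.02. PCDH17 was at 0.07, 0.05 and -0.12 and PCDH1 at 0.03, -0.10 and 0.29, none past the test. The standard errors of these values ran from 0.14 to 0.24.

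The non-clustered genes of low level did not pass against plates either. PCDH7, at 1.54 ± 0.35 CPM on plates (SD, n = 2), had 0.403 ± 0.0031 on P(rGO) (-1.92, SE 0.56, adjusted p = 0.068), 0.671 ± 0.046 on PEDOT:PSS and 0.819 ± 0.49 on ITO, and all 6 film libraries lay below both plate libraries. With stimulation it had 0.450 ± 0.34, 0.920 ± 0.38 and 0.517 ± 0.067 CPM. PCDH10, a delta protocadherin that binds the WAVE complex, had 0.777 ± 0.047, 0.828 ± 0.36 and 0.470 ± 0.0054 CPM on the 3 films and 0.947 ± 0.21, 1.14 ± 0.77 and 1.20 ± 0.70 with stimulation. PCDH15 had 0.316 ± 0.038, 0.241 ± 0.11 and 0.264 ± 0.038 CPM on the films, above the 0.129 ± 0.029 on plates, and 0.264 ± 0.078, 0.299 ± 0.19 and 0.141 ± 0.00013 with stimulation. PCDH1 lay between 32.8 and 42.9 CPM in the mean of all film groups, stimulated or not.

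The film calls depended on single libraries. Without plate replicate 1 no protocadherin was called on any film, and the adjusted p-values of all genes named as changed rose above 0.05. Without plate replicate 2 the counts were 4, 1 and 3 for P(rGO), PEDOT:PSS and ITO, and PCDHGC4 on P(rGO) and PCDH18 on the other films lost their calls, with PCDH12 called on PEDOT:PSS instead. Without P(rGO) replicate 1 only PCDH12 was still called there, and without replicate 2 only PCDH18. Leaving out either ITO or either PEDOT:PSS library ended all calls on that film. The log2 fold changes of the called genes kept their sign throughout, and for PCDH18 ranged from 1.05 to 1.19 on P(rGO), 0.92 to 1.03 on PEDOT:PSS and 0.69 to 0.82 on ITO.

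The remaining tests asked whether the films differed among themselves and whether stimulation changed expression on each. No protocadherin was called in any of these tests, where 0% of all genes were called as well. Between the unstimulated films edgeR called 0 and DESeq2 called 0, and PCDHA7 was the 1 gene at an unadjusted p under 0.05. For stimulation the numbers at an unadjusted p under 0.05 were 2 on P(rGO), 0 on PEDOT:PSS, 0 on ITO and 1 for the mean over the 3 films, and DESeq2 called 0 each time. The difference of the effect between films gave 0 calls, 0 at an unadjusted p under 0.05 and 0 by DESeq2.

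The lowest p-values for stimulation were those of PCDH12 and PCDHAC1. On P(rGO) PCDH12 had 2.46 and 4.63 CPM without and 1.10 and 1.28 with stimulation (log2 fold change -1.57, SE 0.61, adjusted p = 0.85). PCDHAC1 had 11.4 and 14.6 without and 9.67 and 7.76 with stimulation (-0.58, SE 0.23, adjusted p = 0.86). Stimulated and unstimulated libraries did not overlap for either gene, and the unstimulated ones are those that entered the comparison with plates. Both genes were picked by their p-values, so this separation is description only. The test of the difference between films gave an unadjusted p of 0.25 for PCDH12 and 0.30 for PCDHAC1. When no filter on low counts was applied, PCDH12 on P(rGO) was called lower (adjusted p = 0.035), the 1 call of a protocadherin under stimulation in any setting tried.

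For the most abundant genes the mean effect of stimulation did not pass the test, though it exceeded its standard error for PCDHAC1, PCDHB3, PCDHGC3 and PCDH17. It was -0.09 (SE 0.11) for PCDHAC2, -0.05 (SE 0.12) for PCDHA4 and -0.30 (SE 0.13, adjusted p = 0.84) for PCDHAC1. Among beta genes it was -0.07 (SE 0.14) for PCDHB10, -0.05 (SE 0.08) for PCDHB6 and -0.15 (SE 0.11) for PCDHB3. Among gamma genes it was -0.17 (SE 0.10) for PCDHGC3, 0.01 (SE 0.09) for PCDHGB7 and -0.03 (SE 0.11) for PCDHGA7.

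PCDH17 had a mean effect of -0.19 (SE 0.12), PCDH9 of -0.03 (SE 0.14) and PCDH1 of -0.01 (SE 0.11). Over the 44 genes the median effect was -0.16 on P(rGO), 0.03 on PEDOT:PSS, -0.09 on ITO and -0.05 for the mean, and 11, 24, 17 and 10 of them lay above 0. The median standard error was 0.31 on a single film and 0.18 for the mean over films. Changes larger than these could also go uncalled, as that of PCDHAC1 on P(rGO) given above did. The summed level of the 6 cycling markers was 284 to 327 CPM without and 139 to 178 with stimulation on P(rGO), 486 to 578 and 337 to 388 on PEDOT:PSS, and 400 to 401 and 247 to 530 on ITO, and its part in these values was not tested.

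**Figure D5:**
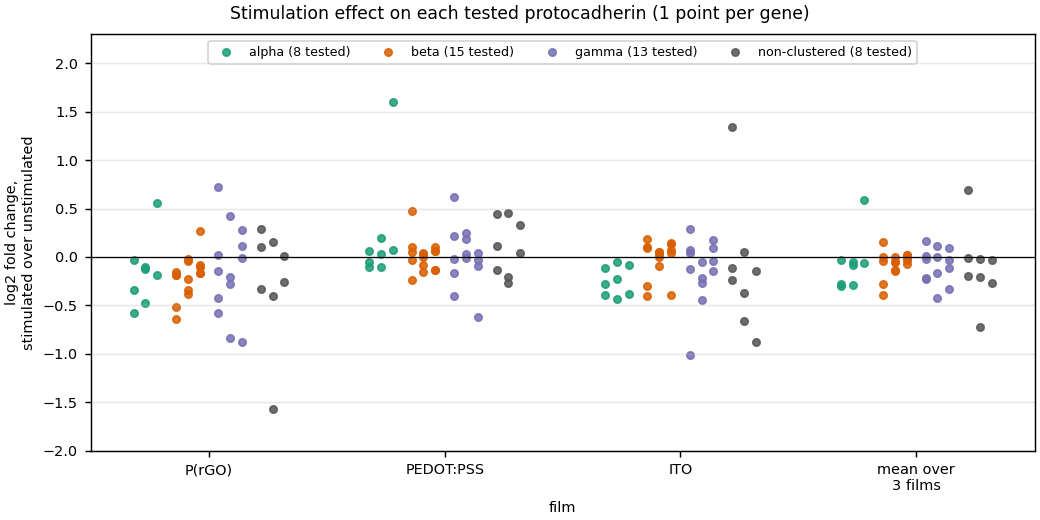
Log2 fold change of stimulated over unstimulated cells for each of the 44 tested protocadherins, on each film and as the mean over the 3 films, 1 point per gene, coloured by class. Of the 44 points 11 lay above 0 on P(rGO), 24 on PEDOT:PSS, 17 on ITO and 10 for the mean. PCDH12 on P(rGO) was the lowest, at -1.57, and no gene passed the test.

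The proteins that act at the clusters or partner with protocadherins were read from gene lists. Each count stands beside the share of all genes called, and nothing particular to a list is read from it. Of 11 genes for CTCF and cohesin, which bind the promoter element shown above, 4 fell and none rose on plates (15.8% of all genes were called lower; median -0.05 against -0.01 over all genes), among them RAD21 (-0.55, SE 0.16, adjusted p = 0.021), STAG2 (-0.53, adjusted p = 0.027) and PDS5A (-0.35, adjusted p = 0.032). The same number fell on films against untreated cells, where 24.3% of all genes were called lower, with STAG2 at -0.76, SMC3 at -0.55 and RAD21 at -0.60, while CTCF was not called in either. Of 9 tested genes for silencing at the clusters, 2 fell on plates, beside 15.8% of all genes called lower. They were REST, a repressor of neuronal genes (-1.12, SE 0.20, adjusted p = 0.0014), and DNMT3B, a DNA methyltransferase that acts on protocadherin promoters (-1.02, SE 0.23, adjusted p = 0.0058). On films DNMT3B (-1.45), TRIM28 (-0.58) and DNMT1 (-0.43) fell against untreated cells. Against plates REST rose on P(rGO) (0.91, adjusted p = 0.019) and ITO (1.04, adjusted p = 0.0091), with 33.7 ± 3.8 and 36.9 ± 1.2 CPM against 17.9 ± 2.6 (SD, n = 2), and untreated cells had 39.0 ± 12.

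Among 21 cleavage and signalling partners 5 rose and 3 fell on plates, beside 29.6% of all genes called. RET, a receptor tyrosine kinase that forms complexes with clustered protocadherins, rose by 1.77 (SE 0.30, adjusted p = 0.0012), PTK2B, a kinase inhibited by clustered isoforms, rose by 1.06 (SE 0.19, adjusted p = 0.0015) and WASF3, part of the WAVE complex, fell (-0.52, SE 0.13, adjusted p = 0.01). On films 7 rose and 3 fell against untreated cells, beside 44.8% of all genes, with RET at 2.04, APH1B, a subunit of gamma-secretase, at 0.82 and CYFIP2, a WAVE complex subunit, at 0.68. CYFIP2 was also higher on P(rGO) (0.58) and ITO (0.70) than on plates, and NCKAP1 (0.49) on P(rGO).

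The classical and type II cadherins moved in both directions. Of 20 listed, 8 were tested, and 2 rose and 2 fell on plates, beside 29.6% of all genes called: CDH2, N-cadherin, rose by 1.02 (SE 0.15, adjusted p = 0.00043), CDH11 rose by 0.98 (SE 0.20, adjusted p = 0.0032) and CDH3 fell (-2.45, SE 0.66, adjusted p = 0.014). On films against untreated cells CDH11 rose by 2.87, CDH2 by 1.46 and CDH24 fell (-1.56). Against plates CDH11 rose on P(rGO) (1.96), PEDOT:PSS (1.82) and ITO (1.89), and CDH24 fell on all 3 (-1.21, -0.93 and -0.78), while CDH2 rose on P(rGO) (0.61). The list of FAT, Dachsous and CELSR cadherins also holds FJX1, which is not a cadherin. Of the 7 tested genes in that list 4 rose and 2 fell on plates, beside 29.6% of all genes called. FAT3 was at -3.63, FAT1 at -1.68 and DCHS1 at 0.75. On films against untreated cells 2 rose and 3 fell, beside 44.8% of all genes, with FJX1, a secreted relative of a fly regulator of Fat and Dachsous, at -2.97, FAT4 at 2.25 and FAT3 at -3.37.

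Marker levels beside the film comparisons were as follows, and their part was not tested. The 9 fibroblast markers summed to 221 to 241 CPM on P(rGO), 221 to 225 on PEDOT:PSS and 235 to 331 on ITO, against 221 to 252 on plates. Of the 7 tested, LUM rose and PDGFRA fell on every film, COL3A1 and DCN rose on ITO, and POSTN was at 0 in every group. The 10 mesenchymal markers summed to 279 to 322, 286 to 314 and 293 to 354 CPM on the films, against 258 to 284 on plates, and the 6 cycling markers to 284 to 327, 486 to 578 and 400 to 401, against 320 to 585. The 9 adrenergic markers summed to 3211 to 3229, 3270 to 3590 and 3059 to 3128 CPM, against 4051 to 4138 on plates and 5476 to 5999 in untreated cells.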

How the data were processed

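The deposited values are raw read counts for each gene, in a table laid out as HTSeq writes it. STAR, HTSeq (no versions) and both GRCh38.p13 and hg38 are named in the submitters' processing notes. The strand setting and the annotation release are not given in the sources used here. Per the labels' protocols, polyA RNA was made into directional libraries. Symbols were matched by Ensembl ID. Exon overlap, on either strand, was read from GENCODE 29, which may not be the release used for the table.

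All 18081 genes that passed edgeR's expression filter over the 8 groups were fitted together in edgeR 4.0.16 (R 4.3.3; quasi-likelihood, TMM scaling, 1 mean per group, 8 residual degrees of freedom). P-values were adjusted by Benjamini-Hochberg over all genes, with calls at 0.05. Standard errors are the log2 fold change over the root of F, and CPM use scaled library sizes. The models were tested on simulated data. Floors of 3 counts cover counting error only. The protocadherins and the gene lists were chosen with earlier results of these data known, so that no list test or list-wide p is given. The rule named every called protocadherin, the 3 with the highest mean CPM in each class, all tested non-clustered genes and up to 3 called genes per list. The alternatives were DESeq2 1.42.0, scaling by relative log expression, no filter on low counts, a replicate block, a fit of the compared groups alone, leaving out each library and, added after seeing the data, a fit without the untreated libraries.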

Additional observations from a re-analysis of the deposited data

How the results depend on the processing

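Counts of called protocadherins are given here as the value reported and that under an alternative, and the cause of each shift was not tested. For differentiation on plates 19 became 1 when the fit held the compared groups alone and 9 to 23 with 1 library left out. For films against untreated cells 24 became 19 to 24 with 1 library left out. Against plates, 5 on P(rGO) became 0 to 4 with 1 library left out. The 1 call on PEDOT:PSS became 4 with no low-count filter, 4 with DESeq2, 4 in a fit without the untreated libraries, added after seeing the data (PCDHAC1, PCDH9 and PCDH12 joined) and 0 to 1 with 1 library left out. The 4 on ITO became 2 when the fit held the compared groups alone and 0 to 3 with 1 library left out. Genes were also gained: PCDHGC3 on ITO passed with DESeq2 (adjusted p = 0.047), with no low-count filter (0.030) and without the untreated libraries (0.028), where PCDHAC2 passed too (0.024). PCDH7 was called lower on P(rGO) with no low-count filter (0.018), in the compared groups alone (0.045) and without the untreated libraries (0.038). For stimulation on P(rGO) 0 became 1 with no low-count filter, and no other alternative gave a call. No log2 fold change of a called gene reversed under any alternative. Relative log expression scaling lost 1 call, PCDH18 on ITO.

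All first libraries carry the prefix NB33 in the labels and all second ones NB34, whose meaning is not given, and the second had the higher protocadherin share in all 8 groups. Deviations of same-numbered libraries correlated at -0.19 to 0.29 over 28 pairs of groups, 16 of them above 0.1, so the pairing is not established. A replicate block gave 20 calls for differentiation, 24 for films against untreated cells, 5 on P(rGO), 1 on PEDOT:PSS, 4 on ITO and 0 for stimulation; PCDH18 on ITO lost its call and PCDHGC3 gained one there, as did PCDH12 for differentiation.

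With 2 libraries per group, the number of replicates limits the precision, and the biological coefficient of variation was 36.2% in untreated cells, 18.1% on differentiated plates and 6.88% to 18.2% on films.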
